A study of Homo sapiens and synthetic construct with 14 samples.

Results

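The central variants of the RE1 library were single-base alternate alleles placed within 3 bases of position 100 of a 200-base genomic window and measured against the native window beside the same enhancer. Members were chosen by name alone. An oligo belonged to the set when its project label was maf1 (called common here) or rare, its name gave a single-base reference and alternate allele, and the position in the name lay within 3 bases of 100, the centre of the window. That position equals the variant's coordinate minus the start in the window's name. There were 563 such variants, 424 common and 139 rare, in 542 windows, out of 3865 alternate alleles within 25 bases of position 100 and 23789 elements in the library. Variants are written as reference base, position and alternate base, so A97G is an A in the native window and a G in the alternate one at position 97.

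RE1 is the DNA site of REST, a zinc finger repressor that keeps neuronal genes silent in cells that are not neurons. The site is read in a left and a right part, and REST brings in corepressor complexes that remove acetyl groups and methyl marks from histones. A change of 1 base in either can weaken binding, whereas other bases of the site are tolerated.

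The assay was MPRAduo, a reporter assay in which each plasmid carries an element in the silencer position, an enhancer and barcodes that identify the pair. Every window version stood beside 5 enhancers, named En02, En09, En11, En19 and En21. The library was electroporated into 4 established human cell lines: GM12878 (lymphoblastoid B cells), HepG2 (liver cancer), K562 (chronic myeloid leukaemia) and SK-N-SH (neuroblastoma). GFP messenger RNA was captured 24 hours later, and barcodes were counted in 4 RNA libraries per line and 4 plasmid libraries that all lines share, so values of the 4 lines are not independent of each other. Values listed below without a line follow the order GM12878, HepG2, K562, then SK-N-SH. All lines received the same plasmid pool, and the alleles compared are those on the plasmid. Each of the 542 windows had a scrambled version in the design, and random and negative control elements stood beside the same enhancers.

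Each plasmid library had between 35194052 and 54483871 counts. The totals of the RNA libraries ran from 55804142 to 63058060 for GM12878, from 53644322 to 81755607 for HepG2, from 50184575 to 94912250 for K562 and from 53157109 to 70350561 for SK-N-SH. The SEs below, and the SDs of levels, are over replicate libraries, and spreads over enhancers or variants are named as such. A count of barcodes after PCR is not a count of independent molecules, so no interval is drawn from single counts.

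The 563 variants gave 2815 designed pairs of an alternate window with an enhancer, of which 2525 could be tested (1892 common and 633 rare). Of the rest, 74 had no counts for the alternate window, 91 had none for the native window, and 125 had a mean plasmid count under 20 in either. The alternate and native constructs tested carried a median of 46 barcodes each, with a range of 1 to 355. Their median plasmid counts were 295.25 and 301.5. A total of 504 variants (378 common and 126 rare) could be measured beside at least 3 enhancers, and 472 beside all 5.

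The members were spread over the central positions, from 59 variants at position 97 to 100 variants 1 base after position 100. A central position held 80.4 variants on average. The arm positions (4 to 10 bases from position 100 on either side, with 914 variants in all) held 65.3 each, and the flanking positions (11 to 25 bases away, with 2388) held 79.6. Centre, arms and flank are distances from position 100 only. The place and strand of the RE1 site within each window are not given in the sources used here. Transitions made up 65.5% of the members, 67.0% of the common ones and 61.2% of the rare ones. A window held 1 member in 521 cases and 2 members in 21, and 1 site was carried by 2 overlapping windows. Members that share a window share their native partner.

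The first question was where the central windows stood beside the control elements before and after the base change. Levels are the log2 of RNA over plasmid, each library scaled on the summed random and negative control elements beside the same enhancer. The median native construct lay at −0.36 (SD over the 4 RNA libraries 0.021), −0.46 (0.023), −0.67 (0.087) and −0.62 (0.024). The alternate constructs lay higher in every line, at −0.28 (0.021), −0.39 (0.016), −0.59 (0.067) and −0.54 (0.015). Both medians were therefore below the summed control elements in the 4 lines. That sum weights control elements by their counts, so 0 is not the median control element. A level below 0 is thus not by itself a measure of silencing. With TMM scaling and with total counts, where 0 no longer stands for those elements, the alternate median was again the higher. The shift of the median was small beside the spread among constructs.

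Scrambled versions, which keep the window's length but lose its site, gave the same order. For 2435 central constructs the native, alternate and scrambled versions were measured. The native window was called lower than scrambled by the edgeR quasi-likelihood test (adjusted p under 0.05) for 193, 471, 875 and 947 of them (7.93, 19.3, 35.9 and 38.9 percent). Over all windows of the library the percentages called lower were 9.9, 23.6, 38.9 and 42.7. The alternate window was called lower for 145, 402, 779 and 827 of the same constructs (5.95, 16.5, 32 and 34 percent), against 9.31, 23.5, 38.9 and 42.5 percent of all alternate alleles. Both central shares were below those of the library in every line. In GM12878 the 193 and 145 fell to between 115 and 119 and between 85 and 87 without any 1 plasmid library. With DESeq2 the native counts were 484 for K562 and 485 for SK-N-SH, and the alternate counts 379 and 377. Every line thus had fewer central alternate windows than central native windows below scrambled. The median native minus scrambled difference was −0.11, −0.13, −0.17 and −0.21, and the median alternate minus scrambled difference was −0.08, −0.10, −0.11 and −0.13. Both comparisons use the same scrambled constructs, so their values are given side by side and were not tested against each other.

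Constructs called higher than scrambled were fewer. The native window was higher for 68 central constructs (2.79%, background 2.38%), 207 (8.5%, background 7.73%), 466 (19.1%, background 16.2%) and 365 (15%, background 13.5%). The alternate window was higher for 64 (2.63%, background 2.31%), 213 (8.75%, background 7.65%), 480 (19.7%, background 16.6%) and 399 (16.4%, against 14% of all alternate alleles).

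The main comparison set the alternate window against its native partner, construct by construct, with edgeR and the Benjamini-Hochberg adjustment over the 17408 alternate-allele pairs at all positions. In K562, 496 of the 2525 central constructs rose (19.6%, background 14.6) and 339 fell (13.4%, background 13.3). In SK-N-SH, 471 rose (18.7%, background 12.5) and 292 fell (11.6%, background 10.7). In HepG2, 134 rose (background 3.27) and 74 fell (background 2.61), together 208 (background 5.88). In GM12878, 18 rose (background 0.276) and 3 fell (background 0.149). Leaving out any 1 plasmid library lowered the counts called to 6 or 7 in GM12878 and to between 90 and 96 in HepG2, and leaving out RNA library 3 of GM12878 or 4 of HepG2 raised them to 45 and 315. Without the library as a block the 835 called in K562 became 413 with total counts and 409 with TMM, and the 763 of SK-N-SH became 443 and 460. With DESeq2 GM12878 had 166 and HepG2 had 390. The share that rose was above the background in all 4 lines, and the share that fell was close to it in HepG2, K562 and SK-N-SH and rested on 3 constructs in GM12878. The backgrounds include the central variants themselves.

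Averaging each variant over its enhancers gave a like result. With limma on the mean log2 ratio of alternate over native, RNA against plasmid libraries, 116 of 504 central variants rose in K562 (background 14.9%) and 62 fell (background 11.5%). SK-N-SH had 107 that rose (background 12.4%) and 54 that fell (background 9.6%). HepG2 had 26 that rose (background 3.06%) and 13 that fell (background 2.71%), and GM12878 had 2 in each direction (backgrounds 0.114% and 0.0857%). The HepG2 count of 39 (background 5.77%) fell to between 15 and 17 without any 1 plasmid library and rose to 67 without RNA library 4. That of SK-N-SH, 161, fell to 104 without plasmid library 3. Among the 2168 flanking variants K562 had 245 higher and 235 lower, SK-N-SH 179 and 209, and HepG2 34 and 54. Among the 828 arm variants K562 had 162 higher and 105 lower, SK-N-SH 149 and 73, and HepG2 47 and 28. The share of arm variants that rose lay between those of the flank and the centre in K562 (19.6%, against 11.3% and 23%) and SK-N-SH (18%, against 8.26% and 21.2%), whereas in HepG2 it was the highest of the 3 (5.68%, against 1.57% and 5.16%).

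Medians over variants were close to 0 in every line. The median central variant was higher than native by 0.043, 0.044, 0.033 and 0.042 on the log2 scale, against 0.007, 0.011, 0.003 and 0.009 for all alternate alleles. Common variants had medians of 0.034, 0.046, 0.016 and 0.031. Rare variants had 0.054, 0.032, 0.106 and 0.074. The rare median was the higher one in GM12878, K562 and SK-N-SH and the lower one in HepG2, where single RNA libraries gave 0.003 to 0.057 for the rare and 0.025 to 0.093 for the common. Single RNA libraries gave 0.066 to 0.13 for rare and 0.023 to 0.033 for common in K562, and 0.066 to 0.085 and 0.039 to 0.054 in SK-N-SH. These ranges hold the spread between libraries of the same variants and not the spread between variants. The common medians of K562 and SK-N-SH lay below their own ranges. At a minimum plasmid count of 100 the order in SK-N-SH was reversed, with 0.050 for common and 0.041 for rare. Rare and common variants were not tested against each other. Rare variants rose at about the same rate as common ones: 32 of 126 against 84 of 378 in K562, and 25 of 126 against 82 of 378 in SK-N-SH. The tail on the upper side was longer than on the lower. For K562 the highest 10% of central variants started at 0.59 and the lowest 10% at −0.31, and for SK-N-SH at 0.71 and −0.32.

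Enhancers gave a further check, because each carries its own barcodes for the same variant. Of the 472 central variants measured beside all 5 enhancers, the alternate window lay above native beside every enhancer for 43, 62, 76 and 86. It lay below beside every enhancer for 30, 49, 48 and 51. The same shares over all alternate alleles were 6.01, 8.85, 10.5 and 11.4 percent above and 5.67, 7.81, 8.97 and 9.82 percent below, so the central shares above (9.11, 13.1, 16.1 and 18.2 percent) were further from the background than the central shares below (6.36, 10.4, 10.2 and 10.8 percent). The median SD of a central variant over its enhancers was 0.528, 0.447, 0.369 and 0.347, larger than most of the mean effects.

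Counts and shares called differed between enhancers. In SK-N-SH the median native RNA count of a central construct was 16.9 beside En02 and 15.2 beside En11, and 675.1, 233.2 and 749.9 beside En09, En19 and En21. The median size of the difference was 0.403 and 0.499 beside the first pair and 0.178, 0.225 and 0.175 beside the other three. For the 5 enhancers in the order En02, En09, En11, En19 and En21, the share of central constructs called in K562 was 24%, 47.3%, 29.7%, 35.5% and 27.9%, and in SK-N-SH it was 24.2%, 39%, 21.2%, 37.5% and 28.3%. In K562 En11 had a higher share than En21 at median native counts of 21.5 and 702.8, so the shares did not follow the counts throughout.

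With enhancers in place of libraries as the replicates, far fewer variants passed. Limma over the enhancers called 5 central variants in K562 (rises of 1.0 to 2.42, background 0.543%) and 3 in SK-N-SH (background 0.2%), and it called 0 in GM12878 and 0 in HepG2 (backgrounds 0% in both). At an unadjusted p under 0.05 the same limma fits gave 46, 78, 108 and 128 central variants (9.13, 15.5, 21.4 and 25.4 percent), against 6.69, 11.4, 15.1 and 16.7 percent of all alternate alleles. The K562 calls were A97G in chr3:10795756-10795956 (adjusted p = 0.0164, limma), C100T in chr12:119360308-119360508, C98G in chr18:44082488-44082688, G103C in chr11:1902678-1902878 and G97A in chr1:37721108-37721308 (the highest adjusted p was 0.0498). The SK-N-SH calls were the same A97G (2.61, adjusted p = 0.00775), G102C in chr1:36126667-36126867 (1.43, 0.0405) and A102G in chr18:39754993-39755193, which fell (−2.34, 0.00775). Calls over libraries measure the spread between transfections of one plasmid pool, in which a variant keeps the same barcodes beside an enhancer. Calls over enhancers also include the spread between barcode sets.

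The size of the central effects went with how strongly the native window lowered expression. For each construct, the native window's difference from scrambled was read beside the other enhancers only, so that the native construct compared with the alternate one played no part in sorting it. This sorting was added after the data had been seen. Where the native window lay at least 1 below scrambled (a 2-fold difference), the median central alternate minus native difference was 0.32 (182 constructs of 59 variants, range over single RNA libraries 0.03 to 0.33), 0.36 (361 of 93, 0.23 to 0.44), 0.32 (327 of 83, 0.31 to 0.35) and 0.38 (386 of 94, 0.33 to 0.44). Where the native window was not below scrambled at all, the medians were −0.00, −0.03, −0.04 and −0.05. Windows in between gave 0.05, 0.04, 0.06 and 0.05. The median was thus higher in the windows that silenced than in the others in each of the 4 lines, and the difference between these classes of window was not tested. Outside HepG2, most of the constructs called higher lay outside the silencing windows, which held the fewest constructs in every line. In K562, 124 of 327 rose in silencing windows, 234 of 1167 in between and 111 of 904 in windows not below scrambled. These were 37.9, 20.1 and 12.3 percent, against 22.6, 14 and 11.7 percent of all alternate alleles in such windows. In SK-N-SH the counts were 155, 227 and 67 (40.2, 18.1 and 8.8 percent, against 19.2, 12 and 8.92). GM12878 had 3, 7 and 7 (1.65, 0.549 and 0.745 percent, against 0.435, 0.322 and 0.189). HepG2 had 67, 46 and 14 (18.6, 4.09 and 1.54 percent, against 7.66, 2.56 and 1.73). Outside GM12878 the shares in windows not below scrambled were thus near those of all alternate alleles.

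In these silencing windows the alternate constructs stood between native and scrambled. The median native minus scrambled difference was −0.82, −1.16, −1.32 and −1.60. The median alternate minus scrambled difference was −0.40, −0.73, −0.84 and −0.85. In K562, 124 of the 327 constructs rose and 29 fell (37.9% and 8.87%), and in SK-N-SH 155 of 386 rose and 29 fell (40.2% and 7.51%). In HepG2 67 of 361 rose and 9 fell (18.6% and 2.49%). GM12878 had 3 that rose. Over all alternate alleles in such windows, central ones included, K562 had 22.6% that rose and 10.5% that fell, SK-N-SH 19.2% and 7.56%, and HepG2 7.66% and 2.63%. Arm variants there had 38.4% and 8.73% (K562), 33.9% and 5.51% (SK-N-SH) and 17.5% and 2.2% (HepG2), so the central shares were near those of the arms.

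Flanking variants in windows that silenced as much had medians of 0.04, 0.03, 0.03 and 0.02. Arm variants had 0.07, 0.31, 0.30 and 0.28, near the central values in all but GM12878. The centre and the arms were not tested against each other. Rare central variants in silencing windows had higher medians than common ones in all 4 lines, 0.52 against 0.29, 0.60 against 0.27, 0.52 against 0.22 and 0.59 against 0.35. These rest on 16, 22, 20 and 23 rare variants, and rare and common were not tested against each other. Single RNA libraries kept that order in HepG2, K562 and SK-N-SH. In GM12878 it was reversed in libraries 1 and 3, with 0.18 and 0.20 for the rare against 0.27 and 0.31 for the common. Libraries 2 and 4 of GM12878 gave 0.11 and 1.02 for the rare against −0.00 and 0.16.

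The size of this shift differed between enhancers, which were not tested against each other. In K562 the median in silencing windows was 0.24 beside En02, 0.31 beside En09, 0.63 beside En11, 0.50 beside En19 and 0.17 beside En21. In SK-N-SH it was 0.47, 0.36, 0.49, 0.58 and 0.26. HepG2 had its highest value beside En11 (0.98) and its lowest beside En21 (0.14). These rest on different sets of constructs, 59 beside En11 and 86 beside En21. Over all central constructs of HepG2 the median native RNA count was 26.8 beside En11 and 646.6 beside En21. All 20 medians over line and enhancer were above 0.

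Within the centre the shift was uneven from base to base. In silencing windows, variants at positions 97 to 99 had medians of 0.48, 0.59, 0.42 and 0.55. Position 100 and the base after it had 0.29, 0.18, 0.19 and 0.19. The bases 2 and 3 after position 100 had 0.27, 0.24, 0.31 and 0.50. The lowest medians of HepG2, K562 and SK-N-SH were at the first base after position 100 (0.07, 0.14 and 0.08, from 25, 21 and 29 variants), where GM12878 had 0.18. Position 99 had 0.83 in HepG2 and 0.91 in SK-N-SH, from 9 and 8 variants, but 0.39 in K562 from 12. Most positions hold under 20 variants, so their order is a description. In SK-N-SH 73.5% of constructs rose at position 99 and 21.7% at the first base after position 100, against 19.2% of all alternate alleles in silencing windows, so the latter share was close to the background.

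The positions just outside the centre did not form an edge. At position 96 the medians in silencing windows were 0.32, 0.32, 0.54 and 0.30, and just inside at position 97 they were 0.30, 0.46, 0.48 and 0.50. The last central base, 3 after position 100, had 0.40, 0.41, 0.63 and 0.69, and the next base out had 0.00, 0.49, 1.61 (3 variants) and 0.38. In GM12878 positions 105 and 106 had −0.31 and −0.08, from 8 and 9 variants, so the shift was not seen just outside on that side. The kind of base change gave no common order. Transitions had 0.30, 0.38, 0.31 and 0.39 and transversions had 0.38, 0.26, 0.39 and 0.35.

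The strongest member was the rare variant A97G in chr3:10795756-10795956 (variant at 10795853 of chromosome 3). Beside En19 in HepG2 the native window gave 167, 73, 102 and 109 RNA counts and the alternate window gave 957, 689, 633 and 520. The plasmid libraries held 972, 622, 983 and 648 counts of the native construct and 680, 475, 761 and 541 of the alternate one, and the native construct was the more abundant of the pair in each. The scrambled window gave 1009, 655, 560 and 714 in the same RNA libraries. Native counts were below both other versions in all 4 libraries, with no overlap.

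Over the 5 enhancers, the A97G window lay above its native partner by 3.14 in HepG2 (SE 0.089, adjusted p = 1.5e-06, limma over libraries), 2.61 in SK-N-SH (SE 0.138, 6.8e-06), 2.42 in K562 (SE 0.144, 1.7e-05) and 1.5 in GM12878 (SE 0.174, 0.023). Single RNA libraries gave 3.07, 3.10, 3.09 and 3.30 in HepG2 and 1.57, 1.07, 1.55 and 1.80 in GM12878. Variants were chosen in a line only with the same sign in its RNA libraries and beside every enhancer, and A97G was chosen in every line. Its agreement in sign is thus part of the choice. Beside single enhancers the difference ran from 2.18 (En09) to 4.44 (En02) in HepG2 and from 0.61 (En11) to 2.11 (En21) in GM12878. The native window lay at −1.35, −2.79, −2.89 and −2.80. The alternate window lay at 0.15, 0.35, −0.47 and −0.18 and the scrambled one at −0.10, −0.03, −0.42 and −0.41. The alternate level was above the scrambled one in HepG2 (SDs 0.11 and 0.11) and SK-N-SH (SDs 0.11 and 0.05) and within the spread of it in GM12878 (SDs 0.12 and 0.31) and K562 (SDs 0.06 and 0.12). In GM12878 the call was lost when any 1 of the 4 plasmid libraries was left out, with values of 1.48 to 1.52, and without En09, En19 or En21 (1.34 to 1.40).

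Several common variants also rose, at a smaller size. C99T in chr9:128845046-128845246 rose by 2.02 in K562 (SE 0.124, adjusted p = 1.7e-05, limma), 1.86 in HepG2 (SE 0.222, 0.0029) and 1.49 in SK-N-SH (SE 0.134, 0.00011). Beside En09 in K562 its native construct gave 46, 54, 43 and 36 RNA counts from 236, 153, 244 and 181 plasmid counts, and its alternate construct gave 1220, 934, 1012 and 720 from 604, 411, 713 and 464. The native window lay at −2.61 in K562, the alternate at −0.59 and the scrambled at −0.37. In HepG2 the alternate level of −1.21 was below the scrambled level of −0.42 (SDs 0.37 and 0.38). In SK-N-SH it was −1.35 against −0.70 (SDs 0.17 and 0.27), so the return was partial there. In GM12878 the difference of 0.59 did not pass (adjusted p = 0.4), and the 4 libraries ran from 0.04 to 1.28.

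C99T in chr17:30604379-30604579, a variant at the same position with the same bases, rested on 52 to 250 barcodes per construct. It rose by 1.85 in SK-N-SH (libraries 1.84, 1.89, 1.99 and 1.68, adjusted p = 2.5e-06, limma), by 1.42 in K562 and by 1.44 in HepG2. Beside En19 in SK-N-SH the native construct gave 182, 284, 246 and 385 RNA counts and the alternate one gave 1607, 1825, 2034 and 2454. The alternate level of 0.14 in SK-N-SH was within its spread of the scrambled level of 0.20 (SDs 0.03 and 0.07), while the native level was −1.71. In GM12878 the libraries gave 0.87, 0.56, 0.52 and 0.49, and the mean of 0.61 did not pass (adjusted p = 0.13).

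C100T in chr12:119360308-119360508 was called in GM12878, K562 and SK-N-SH. It rose by 1.10 in GM12878 (libraries 1.33, 1.03, 1.02 and 1.01, adjusted p = 0.023, limma, and lost without any 1 plasmid library at 1.08 to 1.11 and without En09 or En19 at 1.03 and 0.92), 1.85 in K562 (5.3e-05) and 1.03 in SK-N-SH (7.7e-05). Beside En09 in K562 the native construct gave 535, 450, 426 and 311 RNA counts and the alternate one gave 2058, 1443, 1389 and 1052, from plasmid counts that were lower for the alternate (797, 560, 953 and 660 against 1181, 823, 1176 and 853). The alternate and scrambled levels were both −1.02 in K562, and the native level was −2.86. The 1.27 of HepG2 ranged from 0.46 to 2.59 over libraries and did not pass (adjusted p = 0.14).

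The largest common increase in SK-N-SH was G102A in chr1:7062891-7063091. It rose by 2.09 (libraries 2.36, 2.36, 1.88 and 1.78, adjusted p = 3.1e-05, limma), and by 1.39 in K562 (0.00011). Beside En19 in SK-N-SH the native construct gave 57, 61, 67 and 106 RNA counts and the alternate one gave 574, 782, 714 and 910. The alternate level of 0.41 was above the scrambled level of 0.03 (SDs 0.12 and 0.09). GM12878 and HepG2 had differences of 1.33 and 0.80 that did not pass (adjusted p = 0.052 and 0.11).

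Some alternate windows stayed below their scrambled version. G97A in chr22:34810949-34811149 had the lowest native levels among the variants named here outside GM12878, −4.10, −3.88 and −3.83 for HepG2, K562 and SK-N-SH. The alternate window lay at −2.58, −2.20 and −3.10, still far below the scrambled levels of −0.16, 0.08 and −0.32. The rise was 1.69 in K562 (libraries 1.82, 1.63, 1.71 and 1.60, adjusted p = 1.1e-06, limma), 1.51 in HepG2 (0.027, and lost without any 1 plasmid library at 1.49 to 1.53, or without En09, En19 or En21 at 1.40 to 1.55) and 0.73 in SK-N-SH (0.00068). It was above 0 beside all 5 enhancers in each line, which its choice required in HepG2 and K562. In GM12878 its 0.93 did not pass (adjusted p = 0.15).

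Among rare variants, G103T in chr20:43405732-43405932 rose by 1.78 in SK-N-SH (adjusted p = 7e-05, limma), 1.81 in K562 (0.00053) and 1.88 in HepG2 (0.0058). Its alternate levels of −1.47, −1.44 and −1.41 stood near the scrambled levels of −1.41, −1.18 and −1.30 (SDs of 0.22, 0.35 and 0.45), while the native levels were −3.25, −3.24 and −3.28. GM12878 gave 1.62 with libraries from 0.56 to 2.94, which did not pass (adjusted p = 0.18). C98T in chr12:95273441-95273641 rose by 1.85 in HepG2 (adjusted p = 0.0045), but its native constructs carried only 7 to 11 barcodes. Beside En02 in HepG2 and beside En11 in GM12878, HepG2 and K562 its native construct had no RNA count in any library, so those enhancers enter through the pseudocount. C98G in chr18:44082488-44082688, for which no scrambled construct was measured, rose by 1.53 in SK-N-SH, 1.40 in K562 and 1.58 in HepG2 (the highest adjusted p of the 3 was 0.024, limma). The HepG2 call was lost without any 1 plasmid library (1.55 to 1.62) and without En02 (0.96), En09 (1.72) or En19 (1.57).

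Some increases were called in windows that lay close to their scrambled version in at least 1 line. G102C in chr1:36126667-36126867, on 69 to 273 barcodes, rose by 1.43 in SK-N-SH (libraries 1.58, 1.38, 1.36 and 1.38, adjusted p = 6.3e-06, limma), 1.32 in HepG2 (0.0011) and 1.05 in K562 (4.2e-05). Beside En19 in SK-N-SH its native construct gave 130, 175, 244 and 304 RNA counts and its alternate one gave 664, 873, 1081 and 1411. The native and scrambled levels were −2.63 and −2.43 in K562 (SDs 0.34 and 0.14), and the alternate level of −1.59 lay above both. The native window was below scrambled in HepG2 (−2.73 and −2.26, SDs 0.21 and 0.05) and in SK-N-SH (−2.32 and −1.59, SDs 0.15 and 0.13), where the alternate levels of −1.42 and −0.90 lay above scrambled too. A97G in chr1:65805631-65805831 was close to scrambled in K562, with native −2.93, scrambled −3.04 and alternate −1.60 (a rise of 1.34, adjusted p = 9.8e-05). A97T in chr16:20480347-20480547 rose by 1.65 in SK-N-SH (adjusted p = 0.003), with libraries at 1.11 and 1.10 as well as 2.17 and 2.23. Its native level there was −3.07, below the scrambled level of −1.26 (SDs 0.38 and 0.13), and its K562 value of 0.31 had the opposite sign beside En09 and En21.

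Other central variants lowered expression further. A102G in chr18:39754993-39755193 fell in all 4 lines, with differences of −1.11 (adjusted p = 0.023), −1.62 (0.0018), −1.68 (0.00021) and −2.34 (1.8e-05, limma). In SK-N-SH the libraries gave −1.97, −2.22, −2.63 and −2.55, and the 5 enhancers gave −1.76 to −2.71. Its native window was not a silencer there, with a level of 0.56 against 0.64 for scrambled (SDs 0.16 and 0.11), and the alternate level was −1.78. Its alternate constructs carried 5 to 28 barcodes. The HepG2 call was lost without En02 (−1.62), without En19 (−1.26) and at a minimum plasmid count of 50 (−1.29). The GM12878 call was lost without any 1 plasmid library, and beside En11 the difference there was 0.49, from a native construct with no RNA count in any library. Beside En19 in SK-N-SH the alternate construct had 6 barcodes and gave 11, 17, 7 and 19 RNA counts from 52, 24, 58 and 41 plasmid counts, and the native one gave 417, 584, 466 and 690 from 338, 276, 396 and 247.

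T97G in chr9:36720151-36720351 fell in 3 lines on 30 to 117 barcodes. The differences were −1.48 in SK-N-SH (adjusted p = 0.00012), −1.60 in K562 (3e-05) and −1.73 in HepG2 (0.0025, limma), while GM12878 had −0.05 with libraries on both sides of 0. Beside En09 in K562 the native construct gave 2782, 2011, 1902 and 1420 RNA counts and the alternate one gave 726, 601, 500 and 427, from similar plasmid counts (1308, 772, 1261 and 833 against 1148, 822, 1262 and 841). In the same order the native levels of −0.91, −0.82 and −1.20 were close to the scrambled levels of −0.93, −1.08 and −1.21, and the alternate levels were −2.39, −2.42 and −2.93. The alternate window was thus lower than both the native and the scrambled one.

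C101T occurred among the decreases in 2 windows. In chr11:74944810-74945010 the difference was −1.04 in GM12878 (libraries −1.15, −0.99, −1.09 and −0.93, adjusted p = 0.023), −1.05 in K562 (0.018, and lost without plasmid library 1 or 3 at −1.03 and −1.01, or without En09 at −0.78) and −1.42 in SK-N-SH (0.00013, limma). Single enhancers in GM12878 gave 0.36 (En02), −1.42 (En09), −3.38 (En11), −0.68 (En19) and −0.09 (En21), with an adjusted p of 0.7 by limma over enhancers. Beside En09 the GM12878 libraries gave 49, 187, 37 and 85 alternate counts and 786, 51, 157 and 196 native counts, so library 2 went the other way. The native and scrambled levels in SK-N-SH were −1.37 and 1.13, and the alternate level was −2.79. In K562 the native level of −1.81 was also below the scrambled level of −0.71, whereas in GM12878 they were −0.74 and −1.05 (SDs 0.53 and 0.45), so the native window was not below scrambled there. Its native constructs carried 4 to 36 barcodes, and the HepG2 value of −1.90 did not pass, with libraries from −3.11 to −0.16 (adjusted p = 0.089). In chr17:45041755-45041955 the differences were −0.55 in SK-N-SH (adjusted p = 0.019, limma), −1.02 in K562 (0.014) and −1.37 in HepG2 (0.0022, and lost without En02 at −1.36).

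The remaining rare decreases were small. G102C in chr10:102131030-102131230 lay in a window with high output, at a native level of 2.14 in K562 and 1.84 in SK-N-SH. It differed by −0.37 (libraries −0.39, −0.35, −0.36 and −0.38, adjusted p = 0.0022) and −0.53 (0.00091, limma). The sign was the same beside all 5 enhancers in both lines, as its choice there required. The K562 differences of C101T in chr3:5058398-5058598 and T103C in chr19:42707936-42708136 were −0.43 and −0.38 (the second was −0.20 and not called without En11), and the SK-N-SH differences of G101A in chr15:79088876-79089076 and T99C in chr3:44666732-44666932 were −0.56 and −0.42 (the highest adjusted p of these 4 was 0.012). A101G in chr14:32670454-32670654 fell by 0.53 in HepG2 (adjusted p = 0.013, and lost without plasmid library 1, 2 or 3 at −0.51 to −0.53, or without En09 or En19 at −0.51 and −0.41) and rose by 0.36 in K562 (0.011) and 0.52 in SK-N-SH (0.0061). Within each of these lines the sign was the same beside the 5 enhancers, which its choice required in HepG2 only. The F test over the 4 lines did not pass for A101G (adjusted p = 0.21).

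Few central variants passed the test for a difference between the 4 lines. The limma F test over the 16 RNA libraries called 14 of the 504 central variants (2.78%, background 2.4), 12 common and 2 rare. The central share was near the background. A variant that did not pass, such as A101G above, is not thereby shown to act alike in the lines. The lowest adjusted p was that of C99T in chr2:220317766-220317966 (0.00039), which was picked out after its values were seen. It rose by 1.30 in SK-N-SH and 0.41 in K562, and had 0.47 in HepG2 and −0.06 in GM12878, which did not pass (adjusted p = 0.056 and 0.87). T97G in chr9:36720151-36720351 (0.0035), A97G in chr3:10795756-10795956 (0.0012), G102C in chr1:36126667-36126867 (0.002) and both C99T variants named above (0.00066 and 0.028) had their value nearest 0 in GM12878. A102G in chr18:39754993-39755193 (0.024) also had its smallest size there. G100A in chr2:121159105-121159305 rose in HepG2 (1.02), K562 (0.54) and SK-N-SH (0.81) and had −0.44 in GM12878 (adjusted p = 0.47), and the F test gave 0.041. The native levels of the T97G, A97G, G102C and both C99T windows in GM12878 were −0.57 to −1.55, in each the nearest to 0 of the 4 lines. The part of this in the differences was not tested. Leaving out RNA library 3 of GM12878 raised the count to 24 and leaving out RNA library 2 of K562 lowered it to 9.

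GM12878 alone called 4 central variants: A97G of chromosome 3 and C100T of chromosome 12 rose, and A102G of chromosome 18 and C101T of chromosome 11 fell. All 4 had an adjusted p of 0.023 by limma and the same direction in the other 3 lines. Without any 1 plasmid library, or without En09 or En19, 0 central variants passed in GM12878 by limma, and 9 to 15 passed without 1 of its RNA libraries. At an unadjusted p under 0.05 there were 63 (12.5%), against 12.1% of all alternate alleles, which is near the background. The site carried by 2 windows had 1 change, G103A in chr2:231852109-231852309 and G97A in chr2:231852115-231852315. Neither window passed in any line, and the values ran from −0.51 to 0.59 with SEs of 0.111 to 0.358.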

How the data were processed

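Per the file headers, the deposited WGREST tables give raw barcode counts of each construct, added up by the authors, for 4 RNA and 4 plasmid libraries, with the mean plasmid count as a deposited signal column. No aligner or genome build is given in the sources used here. At hg38 coordinates the reference base matched at 949 of 3865 sites, 24.6%, so no sequence or gene annotation is printed, and coordinates are those of the names.

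Pairs were tested where both versions reached a mean plasmid count of 20, which was done in R 4.3.3 with edgeR 4.0.16 (library, allele and allele by RNA). Log2 ratios of alternate over native, with a pseudocount of 1, were averaged over at least 3 enhancers and tested with limma 3.58.1 (differences are on that scale and understate changes of low counts). The Benjamini-Hochberg adjustment ran over all alternate alleles. DESeq2 1.42.0 was an alternative. The fits were also run on simulated data with spread between libraries only, which is no check on the spread between barcode sets. Summaries used Python 3.11.15 with pandas 2.3.3 and numpy 2.4.6. The series design text calls the replicates biological.

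The named variants are, per line and for common and rare apart, the 3 largest increases and 3 largest decreases past the threshold with 1 sign in all RNA libraries and beside every enhancer. Members and lists were chosen with earlier results of these data known.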

Additional observations from a re-analysis of the deposited data

Results flagged for a closer look

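In 5 of 88 values examined, 1 RNA library stood apart from the other 3 by more than Dixon's limit, which chance exceeds in about 1 of 20 groups. The mean difference of C100T in chr12:119360308-119360508 was 1.33 in 1 GM12878 library and 1.01 to 1.03 in the others. That of G102C in chr1:36126667-36126867 was 1.58 in 1 SK-N-SH library and 1.36 to 1.38 in the others. G101A in chr15:79088876-79089076 had −0.30 in 1 SK-N-SH library and −0.67 to −0.63 in the others. T103C in chr19:42707936-42708136 had −1.19 in 1 HepG2 library and −0.24 to −0.15 in the others. A97G in chr3:10795756-10795956 had 3.30 in 1 HepG2 library and 3.07 to 3.10 in the others.

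The effect of 6 named variants differed between the 4 lines by the limma F test. The adjusted p was 0.00066 for C99T in chr17:30604379-30604579, 0.0012 for A97G in chr3:10795756-10795956, 0.002 for G102C in chr1:36126667-36126867, 0.0035 for T97G in chr9:36720151-36720351, 0.024 for A102G in chr18:39754993-39755193 and 0.028 for C99T in chr9:128845046-128845246.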

How the results depend on the processing

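Of 603 repeats of the named differences, 560 kept the direction and the call, 43 kept the direction and lost the call, and none reversed. The named variants had been chosen with 1 sign in all RNA libraries and beside every enhancer. Repeats that left out 1 RNA library or 1 enhancer therefore could not reverse, and their direction is no check. The counts of central constructs called were 166 in GM12878 and 390 in HepG2 with DESeq2 against 21 and 208. Without the library block they were 37, 413 and 443 with total counts in GM12878, K562 and SK-N-SH, and 38, 409 and 460 with TMM. Leaving out 1 replicate gave 6 to 45, 90 to 315, 736 to 779 and 671 to 710, in the order of lines used above. For central variants called, the ranges were 0 to 15, 15 to 67, 124 to 180 and 104 to 164. With enhancers as replicates 0, 0, 5 and 3 were called, against 4, 39, 178 and 161. GM12878 had 2 at a minimum of 50 or 100 and without En21, and 0 without En09 or En19. HepG2 had 72 with a pseudocount of 5, 25 without En09 and 21 without En19.

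Native constructs lower than scrambled numbered 115 to 242, 365 to 577, 823 to 853 and 886 to 920 with 1 replicate left out, and alternate ones 85 to 205, 304 to 485, 722 to 755 and 772 to 805. With DESeq2 K562 had 484 and 379, and SK-N-SH had 485 and 377. Median levels of native and alternate constructs were −0.33 and −0.23, −0.34 and −0.27, −0.57 and −0.43, and −0.49 and −0.40 with TMM, and −0.80 and −0.71, −1.08 and −1.01, −1.76 and −1.62, and −1.66 and −1.58 with total counts. The alternate median stayed the higher.

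Common medians ran from 0.016 to 0.054, 0.040 to 0.059, 0.012 to 0.024 and 0.031 to 0.042 with 1 replicate left out, and rare medians from 0.040 to 0.11, 0.011 to 0.044, 0.072 to 0.12 and 0.053 to 0.082. In GM12878 a minimum of 100 gave 0.019 (common) and 0.068 (rare). The rare median there was 0.080 at a minimum of 50, 0.083 with a pseudocount of 5, and 0.092, 0.080 and 0.073 without En02, En19 and En21. The rare median of HepG2 was 0.003 without En02, 0.058 without En21 and −0.035 within 1 base of position 100. In K562 the common median was 0.027 at a minimum of 50, 0.024 with a pseudocount of 5, 0.029 and 0.022 without En11 and En19, and 0.033 within 1 base of position 100. The rare one was 0.072 at a minimum of 100, 0.070, 0.138, 0.065 and 0.138 without En02, En09, En11 and En21, and 0.161 within 1 base of position 100. In SK-N-SH the common median was 0.041 and 0.050 at minimums of 50 and 100, 0.043 with a pseudocount of 5, 0.043, 0.039, 0.038 and 0.039 without En09, En11, En19 and En21, and 0.044 within 1 base of position 100. The rare one was 0.061, 0.041 and 0.055 at those minimums and that pseudocount, and 0.062, 0.084, 0.059, 0.088 and 0.091 without En02, En09, En11, En19 and En21.

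The alternatives for windows lower than scrambled were chosen after seeing the data. With 1 replicate left out the central median was 0.14 to 0.38, 0.27 to 0.43, 0.29 to 0.34 and 0.36 to 0.40. A threshold of −0.5 gave 0.18, 0.20, 0.19 and 0.23, and one of −2 gave 0.46 in HepG2. Reading the state beside all enhancers gave 0.49, 0.47, 0.42 and 0.43. K562 had 0.26 at a minimum of 100 and 0.22 with a pseudocount of 5, and SK-N-SH had 0.32 with that pseudocount. Over these alternatives the rare medians were 0.20 to 0.75, 0.37 to 0.81, 0.33 to 1.92 and 0.31 to 0.93, and the common ones 0.10 to 0.40, 0.18 to 0.36, 0.16 to 0.36 and 0.20 to 0.40. The count of variants that differ between lines was 9 to 24 with 1 replicate left out, 32 with a pseudocount of 5 and 7 without En19. The causes of these shifts were not tested.

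No paired analysis was possible because no label ties an RNA replicate to a plasmid replicate or to a replicate of another line. Median native RNA counts were lowest beside En02 and En11 in every line, and the part of depth in the counts of calls was not tested.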
